A study of Caenorhabditis elegans with 8 samples.

Results

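The 9 genes described here are the protein-coding genes of the heterochronic pathway lin-14, lin-28, lin-41, lin-46, hbl-1, lin-29, daf-12 and lin-66, together with col-19, a cuticle collagen gene used as the marker of the adult epidermis. They were chosen by name, though with earlier results of these data known, out of 19794 genes with a probe on the array. Of the 43603 probes of the array, 16 belong to them. Expression was measured on single-colour Agilent arrays in whole hermaphrodite Caenorhabditis elegans, which the labels give as L4 animals in sleep. The mutant strain carried gk794, a deletion allele of aptf-1, which encodes an AP2 transcription factor needed for sleep behaviour, and the control was the wild type strain N2. Each genotype was measured in 4 samples, each a pool of about 200 picked animals, and the labels name no treatment of either genotype. As each sample is a pool of whole animals, fewer cells of a type, less RNA per cell and a shift in age within the pool cannot be told apart.

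Heterochronic genes set the order of larval stages. Each larval stage has its own pattern of divisions in the seam cells, a row of stem-like epidermal cells, and these genes decide which pattern is used. Proteins of early stages are switched off step by step by microRNAs such as lin-4 and let-7, and at the last molt LIN-29 makes the epidermis leave the molting cycle and form an adult cuticle. In the wild type, sleep falls in lethargus, the period before each molt. The levels of these genes were therefore examined as a check that both genotypes had been collected at the same stage.

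All 9 genes were measured, and 15 of their 16 probes exceeded background clearly on each of the 8 arrays. lin-14, lin-41 and lin-46 had 1 probe each, so no second probe could be set beside their differences. A gene or probe was counted as changed when its limma p, adjusted by Benjamini-Hochberg over everything tested, was under 0.05 and its fold change at least 1.5. Counts and shares of all genes include the target names of probes that matched no gene, each tested as a gene. None of the 9 genes passed, whereas 17 of 18267 genes did (0.0931% of all genes, with 0.0602% lower and 0.0328% higher in aptf-1(gk794)). That count was not stable, with 2 to 5 genes when 1 array was left out, and with slide as a block 8 genes were higher and 4 lower, where 6 had been higher and 11 lower. The mean of each of the 9 genes was lower in aptf-1(gk794) than in N2, by between 0.01 and 0.92 on the log2 scale, with a median difference of -0.15. Over all genes tested, the mean was lower in 54.7% and the median difference was -0.03. 3 of the 9 genes, lin-14, lin-46 and daf-12, had an unadjusted p under 0.05 in limma, where 12.2% of all genes did (7.77% lower and 4.47% higher in aptf-1(gk794)). The number was 1 with slide as a block, and 1 when replicate 2 or 4 of aptf-1(gk794) or replicate 1 or 2 of N2 was left out. In 1 of them, lin-46, the 4 aptf-1(gk794) samples lay outside the range of the 4 N2 samples, as in 8.09% of all genes (5% lower and 3.09% higher). The smallest adjusted p among the 9 genes was 0.343. Levels are given as the log2 of the signal relative to the 75th percentile of the same array, so that a value of 0 is that percentile, and all differences are aptf-1(gk794) minus N2. Levels of different genes are not compared, because each probe binds with its own strength.

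**Figure D1:**
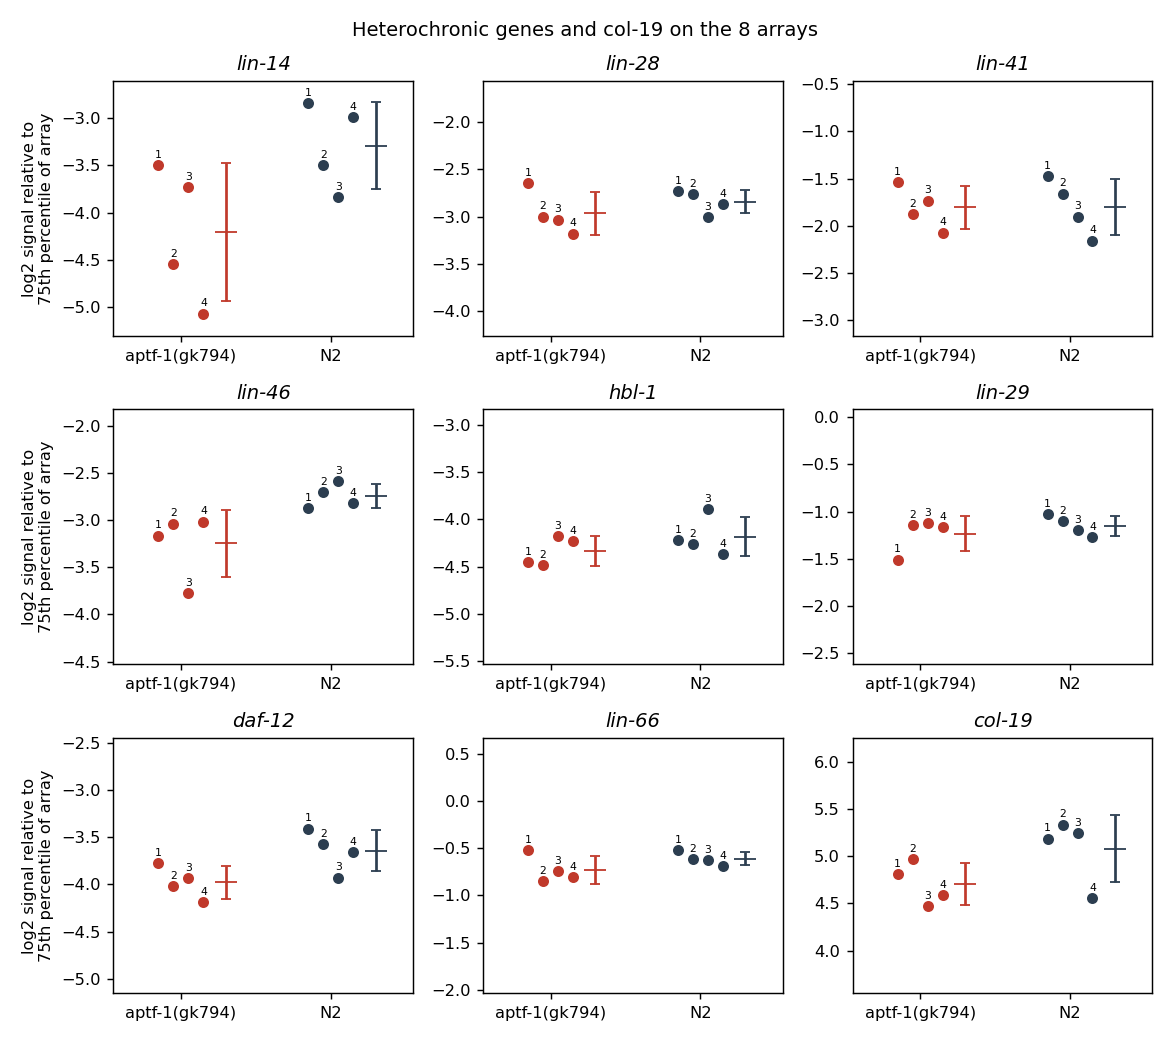
Log2 signal relative to the 75th percentile of the array for the 9 genes, with aptf-1(gk794) samples on the left and N2 samples on the right of each panel; points are samples with their replicate number, and bars are the mean and SD (n = 4 each). Every panel spans the same number of log2 units, and only lin-46 has no overlap between the genotypes.

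The arrays have to be described before the single genes. They lay on 2 slides, each with 2 aptf-1(gk794) and 2 N2 samples, so genotype was balanced over slides, but N2 always took the first positions of a slide and aptf-1(gk794) the last, so genotype and position cannot be told apart. Between 72.2% and 79.7% of spots were well above background per array and 0 were saturated. flp-11, which encodes neuropeptides of the RIS sleep neuron, was lower by 1.18 ± 0.07 (SE) in aptf-1(gk794) (limma, adjusted p 0.00276). Its difference was -1.22 within slide 1 and -1.14 within slide 2, but it did not pass the threshold there (adjusted p 0.755 and 0.212) or with a replicate block (0.152). The probe of aptf-1 itself gave -5.96, -7.22, -4.29 and -7.13 in aptf-1(gk794) replicates 1 to 4, and -5.34, -5.24, -5.18 and -5.58 in N2 replicates 1 to 4. One array labelled as mutant, that of replicate 3, was thus above every N2 array, and it is called labelled replicate 3 here. In replicates 2 and 4 of aptf-1(gk794), the aptf-1 value lay below the lowest signal well above background on those arrays (-6.43 and -6.38). Whether this probe lies within the deleted stretch was not tested, so it is no firm check of the label. The flp-11 value of that array, -0.69, lay with the other aptf-1(gk794) arrays (-0.71 to -0.64) and below N2 (0.45 to 0.60).

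The early-stage genes come first. lin-14 encodes a nuclear protein that specifies the fates of the first larval stage and is silenced by the lin-4 microRNA after it. Its level was -3.50, -4.54, -3.73 and -5.07 in aptf-1(gk794), and -2.84, -3.50, -3.84 and -2.99 in N2. Replicates 2 and 4 of aptf-1(gk794) were the lowest of all 8 arrays, and the other aptf-1(gk794) samples lay within the N2 range. The difference of -0.92 ± 0.38 (SE) was the largest among the 9 genes and corresponded to 53.0% of the N2 level (95% confidence interval 29.0% to 97.0%, limma unadjusted p 0.0416, adjusted p 0.393). The spread between samples was also large, with a pooled SD of 0.61 at the 90.6th percentile of all genes. The difference was -1.08 without labelled replicate 3 of aptf-1(gk794), and -0.63 without replicate 4.

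lin-28 and hbl-1 keep the fates of the second larval stage in place, the first as an RNA-binding protein that blocks maturation of let-7, the second as a zinc finger transcription factor of the Hunchback family. lin-28 ranged between -3.18 and -2.65 in aptf-1(gk794), and between -3.01 and -2.73 in N2, and hbl-1 between -4.48 and -4.17 in aptf-1(gk794), and between -4.37 and -3.89 in N2. The genotypes overlapped for both genes. The difference was -0.12 for lin-28 (95% confidence interval -0.42 to 0.17) and -0.15 for hbl-1 (95% confidence interval -0.44 to 0.14). The lin-28 level is the mean of 2 probes of unlike signal. The brighter probe, with means of -0.17 in aptf-1(gk794) and -0.14 in N2, differed by -0.03. The dim probe, with means of -5.77 and -5.55, differed by -0.22, so the lin-28 difference came mostly from the dim probe. The 3 hbl-1 probes differed by between -0.23 and -0.04.

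lin-46 and lin-66 act against this early program. lin-46 encodes a protein related to the gephyrin scaffold that limits HBL-1 activity and is itself repressed by LIN-28, and lin-66 lowers lin-28 expression. lin-46 measured -3.17, -3.04, -3.77 and -3.02 in aptf-1(gk794), and -2.88, -2.70, -2.59 and -2.82 in N2. All aptf-1(gk794) samples were below all N2 samples, and labelled replicate 3 was the lowest. The difference was -0.50 ± 0.18 (SE), or 70.6% of the N2 level (95% confidence interval 53.4% to 93.5%, limma unadjusted p 0.0210, adjusted p 0.343). Leaving out labelled replicate 3, it was -0.33 and the groups still did not overlap. By p, lin-46 ranked 1116th of the 18267 genes. lin-66 lay between -0.85 and -0.52 in aptf-1(gk794), and between -0.69 and -0.52 in N2, with a difference of -0.12 (95% confidence interval -0.33 to 0.10). It was the most even of the 9 genes, with a pooled SD of 0.11, and its 2 probes did not share a direction (-0.24 and 0.004).

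daf-12 encodes a nuclear hormone receptor that links steroid signals, the dafachronic acids, to progress into the third stage or to entry into the dauer stage. Its level was -3.78, -4.02, -3.93 and -4.19 in aptf-1(gk794), and -3.41, -3.57, -3.93 and -3.66 in N2. The mutant samples were lower except that N2 replicate 3 lay among them. The difference was -0.34 ± 0.14 (SE), or 79.2% of the N2 level (95% confidence interval 63.8% to 98.3%, limma unadjusted p 0.0375, adjusted p 0.384). Its probes differed by -0.30 for the F11A1.3a transcript and -0.37 for F11A1.3b. The F11A1.3b probe was well above background on 3 of 4 aptf-1(gk794) arrays and on 4 of 4 N2 arrays. That probe was thus tested only because of N2, where it is higher, so its direction is no separate support. With only probes well above background on all 8 arrays, the daf-12 difference was -0.30. Of the genes that make the ligand of DAF-12 or act with it, 6 of 7 on the list were tested and 0 passed, with a median difference of -0.09 (all genes -0.03). daf-36, which encodes the oxygenase that starts dafachronic acid synthesis, had the smallest p of that list and differed by -0.19 (adjusted p 0.554, limma), and dhs-16, a dehydrogenase gene of the same pathway, had the highest difference (0.03).

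Of the 9 genes, lin-41 and lin-29, which act in the switch to the adult, had the smallest differences. lin-41 encodes a TRIM protein that holds back the adult program until let-7 represses it. It measured -1.54, -1.88, -1.73 and -2.07 in aptf-1(gk794), and -1.48, -1.66, -1.90 and -2.16 in N2. The genotypes overlapped over nearly their whole range, and the difference was -0.01 (95% confidence interval -0.41 to 0.39). lin-29 encodes the zinc finger transcription factor that drives the larva-to-adult change of the seam cells. Its level was -1.51, -1.14, -1.12 and -1.17 in aptf-1(gk794), and -1.03, -1.10, -1.20 and -1.27 in N2. One aptf-1(gk794) sample, replicate 1, lay below the other 7 arrays, which overlapped. The difference was -0.08 (95% confidence interval -0.34 to 0.17), with -0.19 at the probe of the W03C9.4a transcript and 0.02 at that of W03C9.4b.

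col-19, a collagen of the adult cuticle that LIN-29 activates, was the readout of that switch. It measured 4.81, 4.97, 4.47 and 4.59 in aptf-1(gk794), and 5.19, 5.33, 5.24 and 4.56 in N2. 3 N2 samples lay above all aptf-1(gk794) samples, and N2 replicate 4 lay among them. The signal was far above the 75th percentile on all 8 arrays. The difference was -0.37 ± 0.19 (SE), or 77.3% of the N2 level (95% confidence interval 56.9% to 105%, limma adjusted p 0.460). Its 2 probes differed by -0.29 and -0.45. This value depended on N2 replicate 4. Without it the difference was -0.55 with an unadjusted p of 0.00498, but the adjusted p was still 0.275, and without labelled replicate 3 of aptf-1(gk794) it was -0.29.

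How large a change lay within the error can be read from the confidence intervals. For 5 of the 9 genes (lin-28, lin-41, hbl-1, lin-29 and lin-66) the whole 95% interval lay within a 1.5-fold change in either direction. For the other 4 (lin-14, lin-46, daf-12 and col-19) it reached beyond a 1.5-fold decrease, and for 0 genes did it reach beyond a 1.5-fold increase. These intervals are of the mean of the probes of a gene. With the median of its probes, the hbl-1 interval was -0.82 to 0.40, which is beyond a 1.5-fold decrease. The intervals of single probes also reached beyond it, with lowest limits of -0.82 for hbl-1, -0.70 for lin-29 and -0.59 for lin-28. Of the 16 probes, 14 were lower and 2 higher in aptf-1(gk794), and 0 passed the threshold, with a smallest adjusted p of 0.377 in limma (0.0594% of all probes passed). 3 of the 16 had an unadjusted p under 0.05 (11.6% of all probes) and 1, that of lin-46, had no overlap (7.5%). These 3 were the only probes of lin-14 and lin-46 and the F11A1.3a probe of daf-12, so they largely repeat the values of those genes.

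**Figure D2:**
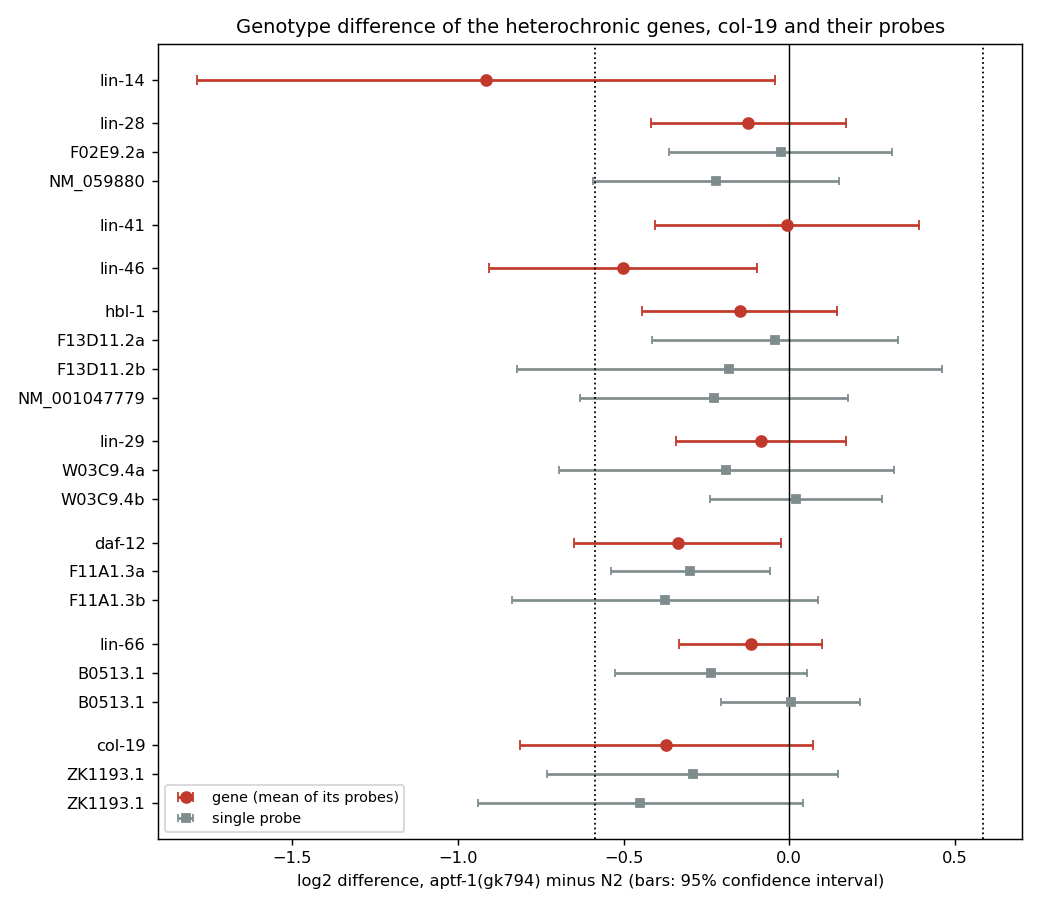
Log2 difference, aptf-1(gk794) minus N2, with 95% confidence intervals for each gene (red circles) and, where a gene has several probes, for each probe by its target transcript (grey squares); dotted lines mark a 1.5-fold change. No interval of a gene reaches the line of a 1.5-fold increase, and those of lin-14, lin-46, daf-12 and col-19 cross the line of a 1.5-fold decrease.

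Within each slide, the 2 aptf-1(gk794) samples were also set against the 2 N2 samples of that slide. lin-14 differed by -0.68 on slide 1 and -1.15 on slide 2, lin-46 by -0.37 and -0.63, daf-12 by -0.23 and -0.44, col-19 by -0.32 and -0.42, and lin-66 by -0.11 and -0.13 in the same slide order. lin-14, lin-46, daf-12, col-19 and lin-66 kept their direction on both slides. The other 4 did not, with 0.04 and -0.29 for lin-28, -0.02 and 0.01 for lin-41, -0.41 and 0.11 for hbl-1, and -0.21 and 0.04 for lin-29. With 2 samples of each genotype on a slide, 0 of the 9 genes had an unadjusted p under 0.05 in limma within either slide. With normexp background correction over both slides the differences were smaller, at -0.45 for lin-14, -0.29 for lin-46 and -0.13 for daf-12.

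Further genes of the pathway were taken from a list of 11, of which 10 were tested and 0 passed. 7 were lower and 3 higher in aptf-1(gk794), with a median difference of -0.04 (all genes -0.03). lin-42, the worm homologue of the clock gene Period, whose level cycles with the molts, measured -2.21, -2.40, -2.44 and -2.28 in aptf-1(gk794), and -0.94, -0.81, -2.18 and -1.73 in N2. The mutant samples were close together and below all N2 samples, which spread over a wider range. The difference was -0.92 ± 0.29 (SE, with a limma unadjusted p of 0.0136 and adjusted p of 0.310), and was -0.41 when probes near background were included. The groups also lay apart for blmp-1, a zinc finger transcription factor of the Blimp family (-0.32, adjusted p 0.328), and for puf-9, a Pumilio-type RNA-binding protein that lowers hbl-1 (-0.33, adjusted p 0.290). Groups lay apart in this direction in 5% of all genes. nhr-85, a nuclear receptor gene that cycles with the molts and was picked after its values were seen, differed by -0.74 (adjusted p 0.339) with overlapping samples. mab-10, the cofactor of LIN-29, differed by 0.06, and bed-3, a zinc finger gene acting in molting and vulval divisions, by 1.17 (adjusted p 0.469).

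Of 11 genes for making or using microRNAs, all 11 were tested and 0 passed, and 9 were lower, with a median of -0.10. xrn-2, a nuclease that degrades mature microRNAs, had the smallest p (difference -0.27, adjusted p 0.400, limma). alg-1, an Argonaute of the microRNA pathway, differed by -0.33. The samples of aptf-1(gk794) lay above those of N2 for drsh-1, the nuclear microRNA processing enzyme (0.22, limma adjusted p 0.410), and for dcr-1, which encodes Dicer (0.11, adjusted p 0.498). dcr-1 was picked after its values were seen. Groups lay apart in this direction in 3.09% of all genes. Of 12 seam cell genes, 9 were tested, 5 were higher and 4 lower, with a median of 0.02. nhr-74, a nuclear receptor of the seam, differed by 1.24 (adjusted p 0.352, limma) with no overlap (higher in 3.09% of all genes). rnt-1, the Runx factor of seam divisions, differed by -0.39, and nhr-25, a nuclear receptor for epidermis and molting, by 0.71.

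Adult and reproductive genes were examined next, since they bear on the age of the pooled animals. Of 8 adult cuticle collagens, 7 were tested and 0 passed, with a median of 0.0007. That median was not stable, with -0.16 within slide 1, 0.59 within slide 2, 0.18 with quantile normalization and 0.25 with normexp. col-62 was lowest, as col-19 was, in replicates 3 and 4 of aptf-1(gk794) and replicate 4 of N2, ranging between 4.08 and 5.43 in aptf-1(gk794), and between 4.44 and 5.79 in N2 (difference -0.49, adjusted p 0.558). In contrast, bli-2, a collagen of the struts of the adult cuticle, measured -2.63, -2.80, 0.57 and -0.39 in aptf-1(gk794), and -3.51, -3.47, -3.85 and -3.21 in N2. All aptf-1(gk794) samples were above all N2 samples, as in 3.09% of all genes, but those of labelled replicates 3 and 4, both on slide 2, were far above the rest. bli-2 differed by 2.20 ± 0.73 (SE; limma, adjusted p 0.328). The means of yolk protein genes were lower in aptf-1(gk794) in 5 of 5 tested, of which 0 passed, with a median of -0.35, and vit-6 had the smallest p (-0.46, adjusted p 0.344). Without labelled replicate 3 the yolk median was -0.18, and with quantile normalization it was -0.21. All 5 were well above background on all 8 arrays. The means of oocyte genes were higher in 8 of 9, of which 0 passed, with a median of 0.19 and differences between -0.02 for perm-4, an eggshell gene, and 0.32 for egg-2, a sperm receptor of the oocyte (adjusted p 0.436, limma). Without N2 replicate 4 the oocyte median was 0.03, and without aptf-1(gk794) replicate 1 it was 0.11. They too were above background on every array. Of 9 genes of the early embryo, 1 passed the background filter, end-3, a GATA factor of the endoderm (difference -0.12).

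Molt genes differed between the aptf-1(gk794) arrays. Of 14, 13 were tested and 0 passed, 10 were higher and 3 lower in aptf-1(gk794), with a median of 0.28. That median was 0.01 without labelled replicate 3 and -0.07 within slide 1. mlt-10, a gene switched on in the epidermis before each molt, measured -2.83, -2.35, 2.19 and 1.54 in aptf-1(gk794), and -3.49, -1.97, -3.79 and -2.77 in N2. Labelled replicates 3 and 4 of aptf-1(gk794) were high and replicates 1 and 2 overlapped with N2, so that the difference of 2.65 had an SE of 1.18 (adjusted p 0.410, limma). In 10 of the 13 genes, both of these arrays of slide 2 were above both aptf-1(gk794) arrays of slide 1, which held for 17.9% of all genes. In N2, both arrays of slide 2 were above both of slide 1 in 4 of the 13, against 14.4% of all genes. rol-6, a cuticle collagen gene, followed the same array pattern (2.05, adjusted p 0.389). noah-2, a component of the apical extracellular matrix, went the other way with no overlap, as in 5% of all genes (-0.96, limma unadjusted p 0.00576, adjusted p 0.244). nhr-23, the nuclear receptor that drives molting, differed by -0.03. Of the 8 core heterochronic genes and col-19, both slide 2 arrays of aptf-1(gk794) were above both slide 1 arrays in 1, hbl-1 (17.9% of all genes). They were below both slide 1 arrays in 2, lin-28 and col-19 (19.1% of all genes). The part of molting stage in the differences of these genes was not tested.

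**Figure D3:**
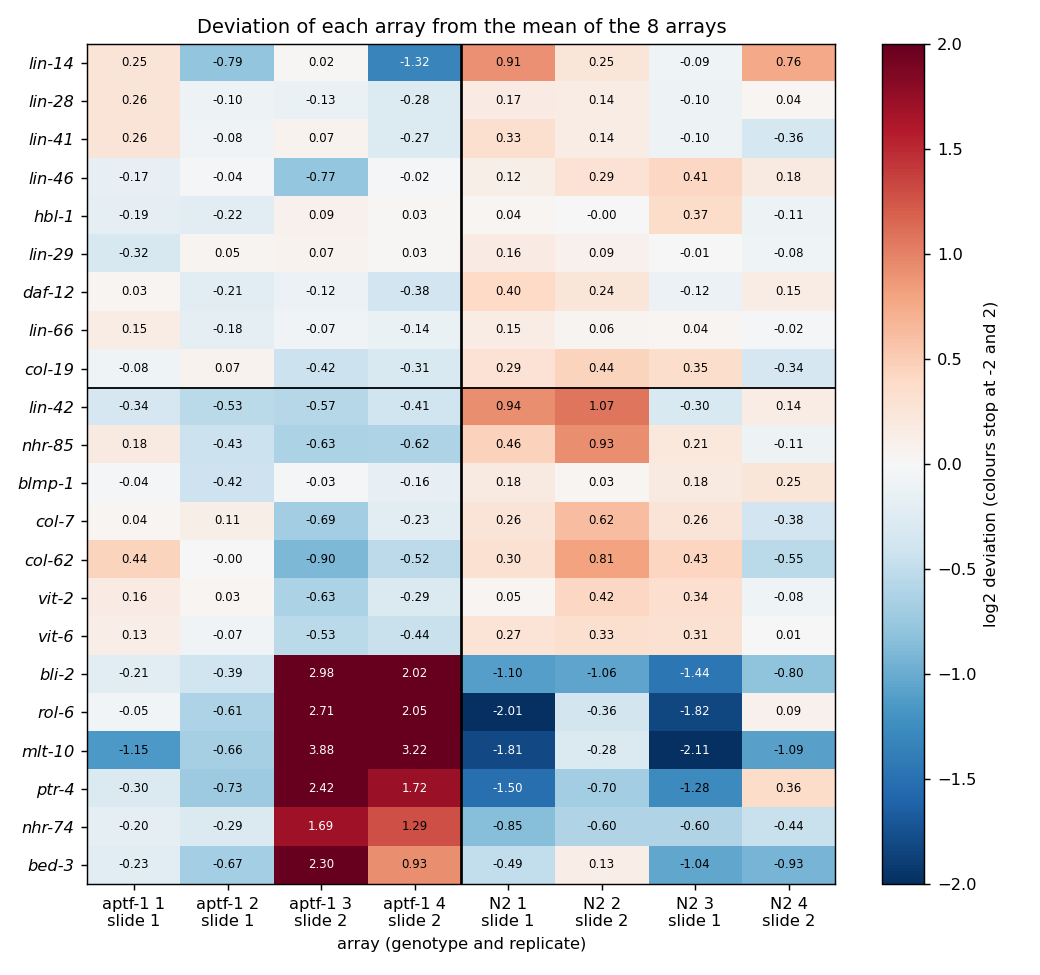
Log2 deviation of each array from the mean of the 8 arrays for the 9 genes (above the line) and for partner, adult and molt genes (below it), of which nhr-85, col-7, vit-2 and ptr-4 were picked after their values were seen; columns are the aptf-1(gk794) samples, then the N2 samples, with their slide. Labelled replicates 3 and 4 of aptf-1(gk794) stand out for bli-2, rol-6, mlt-10, ptr-4, nhr-74 and bed-3, for which they lie 0.93 to 3.88 above the mean, whereas the 9 genes have deviations between -1.32 (lin-14 in replicate 4 of aptf-1(gk794)) and 0.91 (lin-14 in replicate 1 of N2).

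**Figure D4:**
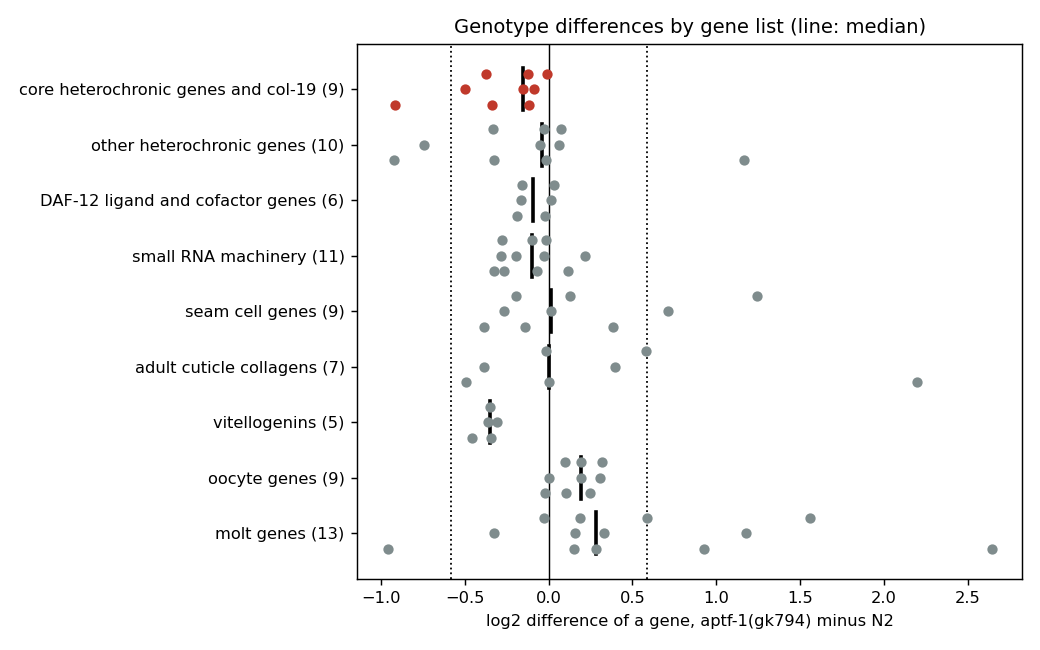
Log2 difference of each tested gene, aptf-1(gk794) minus N2, by gene list; black bars are medians, dotted lines mark a 1.5-fold change and the number of tested genes follows each list. The 8 core heterochronic genes and col-19 all lie below 0, and so do the yolk protein genes, as do the intestine markers, which are not drawn, while molt genes reach 2.65 and adult collagens 2.20.

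Markers of other tissues were compared to see what else differed between the pools. Muscle markers had a median of -0.12, neuron markers of 0.01, intestine markers of -0.19 and epidermis markers of 0.29. The muscle median was not stable, with -0.25 within slide 1, 0.03 within slide 2 and -0.001 with normexp. All 5 intestine markers had a lower mean in aptf-1(gk794). act-5, an actin of the intestine, differed by -0.55 (unadjusted p 0.000828, adjusted p 0.134, limma) and the epidermal GATA factor elt-3 by -0.44 (unadjusted p 0.00116, adjusted p 0.158), both with no overlap (lower in 5% of all genes). elt-3 was the only epidermis marker with a lower mean among 5 tested. The others differed by 0.18 for the zinc finger gene lin-26, and by 0.29, 1.54 and 2.05 for the collagen genes dpy-13, sqt-3 and rol-6. In the same order, their adjusted p in limma was 0.480, 0.822, 0.471 and 0.389. sqt-3 differed by 0.82 within slide 1 and 2.26 within slide 2, and rol-6 by 1.58 and 2.52. Without labelled replicate 3 the epidermis median was 0.11. In muscle, the differences ran from -0.16 for the paramyosin gene unc-15 to 0.14 for the troponin gene tni-3, and in neurons from -0.28 for the syntaxin gene unc-64 to 0.10 for the synaptobrevin gene snb-1. The intestine list ranged between 1.48 and 1.65 in aptf-1(gk794), and between 1.66 and 2.12 in N2, as a mean log2 level of its 5 genes. Dauer genes had a median of 0.34, with differences between -0.74 for col-40 and 0.66 for col-2, both collagen genes. With normexp the dauer median was 0.16. Of 8 male-enriched genes, pkd-2, cwp-1 and dmd-3 were well above background on 0 of 8 arrays. The other 5 were tested and 0 passed, with a median of -0.28 and differences of -1.60 for lov-1, -0.76 for cwp-2, -0.28 for cwp-4, 0.12 for mab-3 and 0.37 for klp-6. In replicate 4 of aptf-1(gk794), lov-1 measured -8.22, where the lowest signal well above background on that array was -6.38. Leaving out 1 array at a time gave -2.12 to -0.84 for lov-1. With only probes well above background on all 8 arrays, the median of the male-enriched genes was -0.08. Over 16 such lists, 102 of 123 genes were tested and 0 passed. The part of these tissues in the differences of the heterochronic genes was not tested.

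The genes whose levels were most like those of lin-29 and col-19 over the 8 arrays were looked up, as a description without a test, since all points share array and scaling. For col-19 they were C34H4.1 (Pearson r 0.990, Spearman rho 0.976), E03H4.8 (r 0.975, rho 1.00) and F48G7.10 (r 0.967, rho 0.952), each with its lowest values in N2 replicate 4 and in replicates 3 and 4 of aptf-1(gk794). For lin-29 they were Y37F4.5 (r 0.974, rho 0.976), ent-3, a nucleoside transporter gene (r 0.972, rho 0.905), and rpl-11.1, a ribosomal protein gene (r 0.958, rho 0.929), each with its lowest value in aptf-1(gk794) replicate 1. These 6 genes differed by between -0.52 and -0.04, and their adjusted p in limma lay between 0.477 and 0.809.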

How the data were processed

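Total RNA of 8 samples, 4 of aptf-1(gk794) and 4 of N2, had been amplified, labelled with Cy3 and hybridized to single-colour Agilent arrays. The authors deposited the spot intensities of each array, written by Agilent's Feature Extraction software (version 10.7.3.1 in the headers) as background-subtracted processed signals on a linear scale without scaling between arrays. They also deposited a table of normalized intensities, whose columns had the rank order of the scanner values (Spearman rho 1) and medians between 96.4 and 96.5. Such values are what quantile normalization gives. The table served only as an alternative. The submitters' processing notes name limma.

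Groups and replicate numbers came from the sample labels. Control spots were dropped, as were outlier spots, of which an array had 18 to 62. Spots of the same probe were averaged as log2 processed signal, and the 75th percentile of the array was subtracted. A probe was tested if, in 1 genotype or both, all 4 arrays had it well above background, and genes were the mean of their tested probes. Probes were named by locus tag or accession through an NCBI gene table (assembly WBcel235), which matched 34266 of 43603 probes (78.6%). The other probes were kept under their target name, and each such name was tested as a gene. Coordinates are left out because the array's design used an older build.

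In R 4.3.3, limma 3.58.1 (two-sided, lmFit then eBayes) was run with genotype as the only term, on 18267 genes and 32007 probes, with Benjamini-Hochberg adjustment over all of them. The fold limit of 1.5 follows the study's methods. That the samples are separate cultures is not stated, so p-values measure the spread between these samples, and their number limits the precision. Deviations of samples with the same replicate number correlated at -0.11, 0.24, 0.06 and 0.20, so the numbers were not taken to pair the samples. The 9 genes and all lists were chosen with earlier results of these data known. Named are the 9 genes, from each list the smallest p and the largest rise and fall, 5 pathway partners, the 3 genes most like col-19 and lin-29, aptf-1 and flp-11, and others where said. Alternatives were quantile, median and normexp (offset 50) processing, the deposited table, other filters, slide or replicate as a block, each slide alone, the median of probes, no fold limit, and leaving out each array. normexp used the median spot signal, as the mean signal was not used here. Files were read with pandas 2.3.3 and numpy 2.4.6 in Python 3.11.15, and plots drawn with matplotlib 3.10.9.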

Additional observations from a re-analysis of the deposited data

Results flagged for a closer look

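In 102 groups of 4 arrays, formed by each named gene in each genotype, 4 had a sample set apart from the other 3, where chance alone gives about 1 in 20, or 5.1 of them. The gap to the nearest array made up 0.89 of the whole range for lin-29 in aptf-1(gk794), where replicate 1 measured -1.51 and the other arrays -1.17 to -1.12. Without that array, the lin-29 difference between aptf-1(gk794) and N2 was 0.01. The share was 0.967 for Y37F4.5 in aptf-1(gk794), also with replicate 1 lowest, and Y37F4.5 had been named for its likeness to lin-29. It was 0.854 for mab-10 in N2, where replicate 4 was lowest at -5.18, and 0.849 for alg-1 in N2, where replicate 4 was highest at -0.39.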

How the results depend on the processing

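Under all 20 alternatives, 0 of the 9 genes passed the threshold, with smallest adjusted p values in limma between 0.275 and 0.854. lin-14 (-1.15 to -0.45), lin-46 (-0.63 to -0.29), daf-12 (-0.44 to -0.13), lin-66 (-0.19 to -0.07) and col-19 (-0.55 to -0.24) stayed lower in aptf-1(gk794) in all of them. The other 4 changed sign in at least 1. lin-28 was 0.045 within slide 1, and within slide 2 hbl-1 was 0.11, lin-29 0.042 and lin-41 0.0054. When 1 array was left out, lin-41 ranged from -0.13 to 0.10 and lin-29 from -0.13 to 0.0065. The median of the 9 genes was -0.15, with -0.09 under normexp, -0.23 within slide 1, -0.29 within slide 2 and -0.23 without aptf-1(gk794) replicate 1.

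The number of genes past the threshold was 17, but 11 with quantile normalization, the deposited values or the median of probes, 7 with median scaling, 2 without a filter, and 0 within either slide. With only probes well above background on all 8 arrays the number was larger, with 11 genes higher and 13 lower in aptf-1(gk794). The number of probes was 19, but 12 without a filter and 0 within either slide. Leaving out 1 array at a time gave 2 to 5 genes and 4 to 10 probes. The fit with a replicate block gave 0 genes and 0 probes, and flp-11 then had an adjusted p of 0.152 in limma with its difference of -1.18 as before.

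Other named genes with small differences changed sign. perm-4 was 0.051 with quantile normalization, 0.054 with normexp, 0.053 with the deposited values and 0.044 within slide 2, and rpl-11.1 was 0.13 in the same 3 settings and 0.0066 within slide 2. dhs-16 was -0.074 with normexp and -0.086 within slide 2, and mab-3 was -0.0072 without a filter and -0.13 within slide 1. Within slide 1, mab-10 was -0.072 and snb-1 -0.093, and within slide 2, nhr-23 was 0.14, klp-6 -0.51 and ent-3 0.034. Leaving out 1 array gave -0.079 to 0.060 for nhr-23, -0.29 to 0.30 for dhs-16, -0.051 to 0.22 for mab-3, -0.18 to 0.053 for perm-4, -0.22 to 0.051 for end-3, -0.036 to 0.52 for klp-6 and -0.087 to 0.13 for mab-10. The cause of these changes was not tested.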
